A study of Salmo salar with 20 samples.

Results

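The genes described here are those that the study placed among the tissue structure genes of fish fed pea protein concentrate with saponins, under the headings of adhesion and glycans, growth factors and regulators, and cellular stress. These headings hold 41 entries, and the genes were selected on their change in that diet group: an entry was taken as the probe whose mean fold change and SE over the 4 pea protein fish, in the authors' processed values, came within 0.0051 of the listed pair. This gave 1 probe for 33 entries, 22 of them of adhesion and glycans, 7 of growth factors and regulators and 4 of cellular stress, out of 21322 unique probes on the array. Another 6 entries had 2 such probes and were left out (D-glucosaminylasparagine amidase F, angiogenin-1, bone morphogenetic protein 7, angiopoietin-related protein 4, heat shock protein HSP 90-alpha and heat shock protein 67B2). Of these 6, HSP 90-alpha was listed as up-regulated and the other 5 as down-regulated. The remaining 2 entries, 1 listed up and 1 down, had none. The farthest probe taken lay 0.0049 away and the nearest one not taken for these 2 entries lay 0.0118 away. Some genes had a second probe just past the limit of 0.0051. It lay 0.0052 away for alpha-1,3-fucosyltransferase, 0.0055 for glucosamine 6-phosphate N-acetyltransferase and 0.0057 for tropomyosin alpha-3 chain. The files give no gene names, and 17 of the 33 genes had a second probe within 0.02 of the listed values, so each gene name below rests on this match. Of the 33 genes, 14 were listed as up-regulated and 19 as down-regulated.

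RNA from the distal intestine (DI) of Atlantic salmon was hybridised to 2-colour oligonucleotide microarrays, on which each fish fed saponins was compared with 1 pool of RNA from 12 fish given the same plant protein without saponins. Soyasaponins are plant glycosides with a detergent-like structure, and the comparison asks what they do to the intestine in combination with each plant protein. The groups were pea protein concentrate (PPC + S), corn gluten (CG + S), horse bean meal (HBM + S), rapeseed meal (RSM + S) and sunflower meal (SFM + S), with 4 fish on 4 arrays each. All were post smolts with a starting weight of 270 g that received 2 g of saponins per kg of feed for 80 days, and in all diets the plant protein replaced part of the fishmeal. By the methods, the plant source gave a larger share of total protein in PPC + S and CG + S than in HBM + S, RSM + S and SFM + S. Comparisons of PPC + S with the latter groups therefore differ in this level as well as in the plant source. The 4 fish of a group came from a pair of tanks, which the labels do not name, so that p-values treat fish as independent and can be too small. The spread between control fish is not measured, as each pool is 1 sample. Any deviation of a pool is shared by the 4 fish of its group and enters every comparison of fish between diets.

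The intestinal epithelium is a sheet of cells held together by tight junctions, cadherins and gap junctions, carried by an actin cytoskeleton and seated on a basement membrane of laminins and proteoglycans. Its surface and mucus are covered with glycans, which are built by transferases in the Golgi and taken apart by hydrolases, most of them lysosomal. Growth factors, transcription regulators and heat shock proteins govern the renewal of this tissue and its handling of damaged proteins.

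Each value below is a log2 ratio of a fish over its pool, normalized by loess within the array, so that 1 means 2-fold above the pool and -1 means 2-fold below it. The methods and labels give Cy5 for every fish, but arrays 3 and 4 of every group ran against the authors' processed values, with a Pearson's r across 17348 spots of 0.993 to 0.998 in size on all 20 arrays. Before any turning, the PPC + S arrays 1 and 2 correlated with arrays 3 and 4 at r between -0.51 and -0.42, although all had the same pool as reference. The other groups did not show this: r was -0.16 to 0.17 in CG + S and 0.01 to 0.21 in RSM + S. In HBM + S it was 0.36 to 0.45 and in SFM + S 0.21 to 0.51. For those groups the direction rested on the authors' processed values. The 10 arrays numbered 3 and 4 were therefore turned, and every direction below rests on that choice. If arrays 1 and 2 were the ones labelled the other way, every sign below would be the opposite. The direction is therefore not settled by the labels alone, and the study's qPCR and histology, which bear on it, were not used here. With the dyes taken as stated, 6 of the 33 genes changed sign in PPC + S (occludin, kalirin, basic helix-loop-helix (bHLH) protein 2 of class B, guanylin, the 60 kDa heat shock protein and heat shock cognate 71 kDa protein). Each group had its own slide, so slide and diet cannot be told apart.

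All 33 genes gave signal above background often enough to be tested, and 32 were well above it in both channels on the 4 PPC + S arrays. The median SD between the 2 spots of a probe was 0.13 and that between the 4 fish was 0.48. For kalirin, transmembrane glycoprotein NMB and tropomyosin alpha-3 chain the spots differed more than the fish did. No spot of these genes was saturated in PPC + S. The median over all probes tested was 0.004 in PPC + S and lay between -0.002 and 0.002 in the other groups. Loess within the array sets this median near 0, so nothing is read from it.

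**Figure D1:**
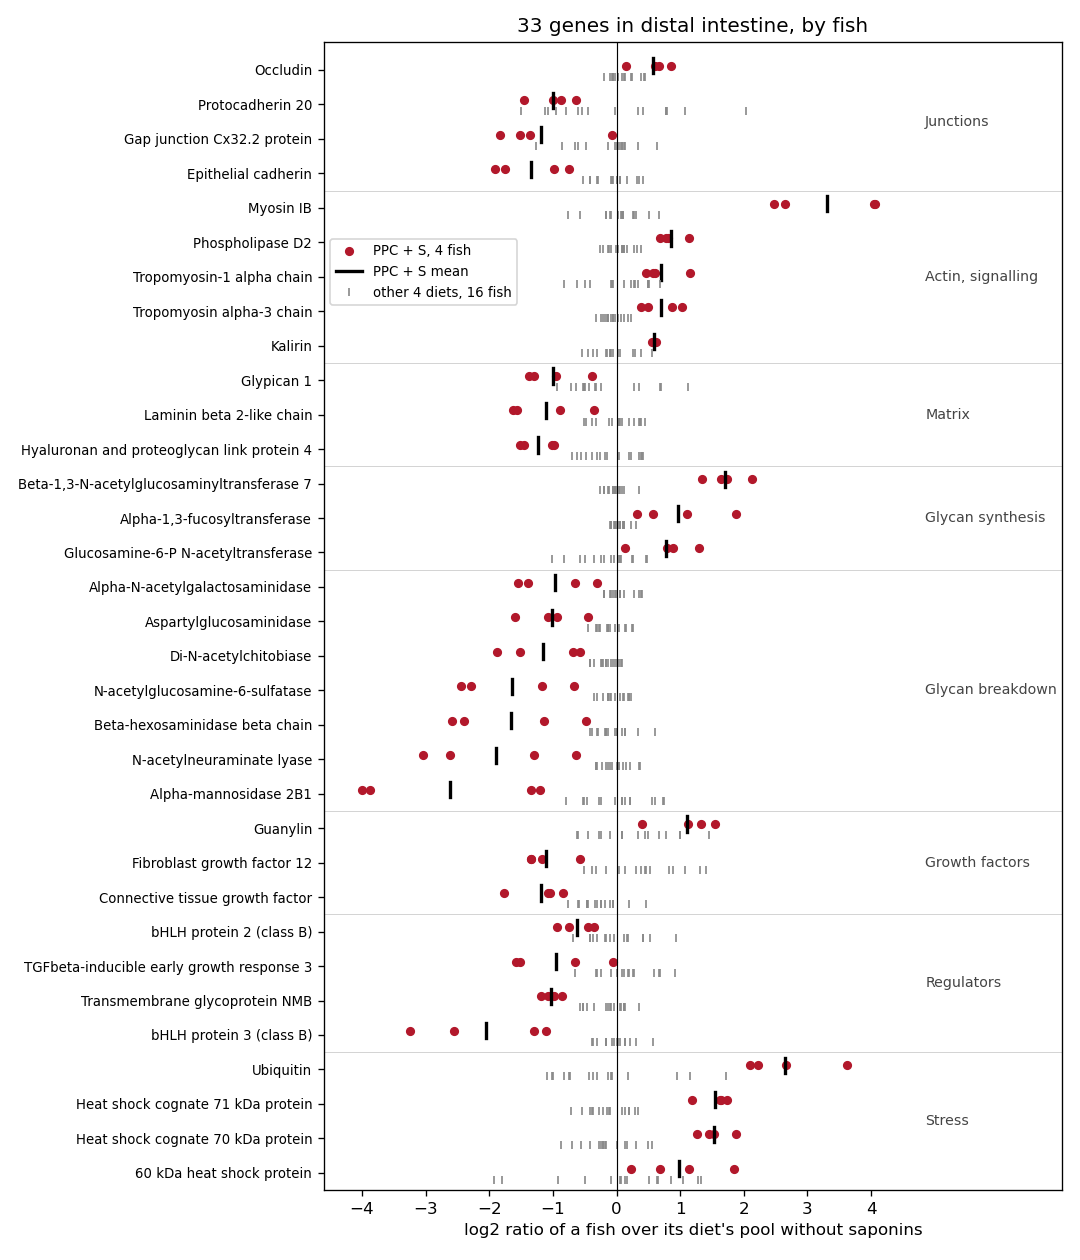
Log2 ratio of each fish over its diet's pool (x axis) for the 33 genes, grouped by role (y axis). Red points are the 4 PPC + S fish, black bars their mean, and grey ticks the 16 fish of the other diets. The PPC + S points of myosin IB, ubiquitin and alpha-mannosidase 2B1 lie farthest from 0, while the grey ticks of most genes lie around 0.

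In PPC + S, all 33 genes had all 4 fish on the listed side of 0. The 14 up-regulated genes had means between 0.57 and 3.30, with a median of 0.97 (1.96-fold), and their median in single fish was 1.22, 0.95, 1.01 and 1.20. The 19 down-regulated genes had means between -2.61 and -0.62, with a median of -1.16 (2.24-fold lower), and their median in single fish was -1.59, -1.52, -0.93 and -0.85. These values chose the genes and are given as a description. By the same values, 12 of the 14 genes were over 1.6-fold higher, against 2.79% of all probes tested, and 18 of the 19 were over 1.6-fold lower, against 4.56%. The exceptions were occludin (1.49-fold), kalirin (1.5-fold) and bHLH protein 2 (1.54-fold lower).

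Among the junction genes, transcripts of 3 cell contact proteins were lower and that of occludin was higher. Epithelial cadherin, which joins neighbouring epithelial cells at adherens junctions, was at -1.75, -1.91, -0.98 and -0.74 in the 4 PPC + S fish. Its mean was -1.34 ± 0.57 (SD, n = 4), or 2.54-fold lower, against -0.52 to 0.42 in the 16 fish of the other diets. The ranges did not overlap, and fish 1 and 2 were lower than fish 3 and 4. The mean was -2.11 with a normexp offset of 0, which does not draw dim probes towards 0, and -2.32 in the scanner software's log ratios.

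Gap junction Cx32.2, a connexin that forms channels between cells, was at -1.83, -1.51, -1.36 and -0.07, with a mean of -1.19 ± 0.78 (SD, n = 4), so that fish 4 stayed at the level of the pool. In the other diets it spanned -1.27 to 0.63, and fish 4 was the only one of PPC + S within that range. Protocadherin 20, an adhesion molecule of the cadherin superfamily, was at -1.46, -0.88, -0.63 and -1 in PPC + S, with a mean of -0.99 ± 0.35 (SD, n = 4), which was -1.84 with an offset of 0 and -2.41 in the scanner log ratios. The other diets spanned -1.50 to 2.03 for this gene, the widest spread of the junction genes, and covered all 4 PPC + S fish. Occludin, a membrane protein of tight junctions, had a mean of 0.57 ± 0.30 (SD, n = 4) and a lowest fish at 0.15, within the range of the other diets (-0.19 to 0.45).

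The 5 genes with 1 probe that are linked to signalling and actin were all higher in PPC + S. Myosin IB, an unconventional myosin that ties membranes to actin filaments, was the most raised of the 33 genes. It was at 4.04, 4.06, 2.65 and 2.47 in PPC + S, with a mean of 3.30 ± 0.87 (SD, n = 4), or 9.87-fold, against -0.76 to 0.66 in the 16 other fish. Each relative to its own diet's pool, every PPC + S fish was thus far above every fish of the other diets.

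Phospholipase D2, which releases phosphatidic acid from membrane lipids, was at 0.78, 1.14, 0.81 and 0.69, with a mean of 0.86 ± 0.20 (SD, n = 4), above the -0.26 to 0.38 of the other diets. In the scanner log ratios its mean was 1.53. Tropomyosin-1 alpha chain, which winds along actin filaments, was at 1.16, 0.47, 0.58 and 0.60, with a mean of 0.70 ± 0.31 (SD, n = 4). In this gene the ranges overlapped, since the other diets spanned -0.82 to 0.69. That spread followed array orientation: fish 1 and 2 of HBM + S were at 0.51 and 0.50 and fish 3 and 4 at -0.50 and -0.62, and in SFM + S the same fish were at 0.49, 0.69, -0.82 and -0.42. Tropomyosin alpha-3 chain had the same mean in PPC + S, 0.70 ± 0.30 (SD, n = 4), with a range of 0.39 to 1.03 that lay above the -0.32 to 0.23 of the other diets. Kalirin had 0.59 ± 0.03 (SD, n = 4), the smallest spread between fish of all 33 genes, and its lowest fish at 0.56 stood next to a CG + S fish at 0.55. The SD between the spots of kalirin was 0.29, so this small spread is below the measurement error and says nothing about the fish.

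The 3 genes of the extracellular matrix were lower in PPC + S. The laminin beta 2-like chain, a part of basement membranes, was at -1.56, -1.63, -0.35 and -0.89, with a mean of -1.11 ± 0.61 (SD, n = 4). Its highest PPC + S fish was within the range of the other diets, -0.51 to 0.44. Glypican 1, a heparan sulfate proteoglycan anchored to the cell membrane, was at -1.29, -0.95, -1.37 and -0.39, with a mean of -1 ± 0.45 (SD, n = 4), and the other diets spanned -0.94 to 1.12. Fish 4 lay within that range and fish 2 just below it. Hyaluronan and proteoglycan link protein 4, which stabilizes the binding of proteoglycans to hyaluronan, was at -1.51, -1.45, -1.01 and -0.99, with a mean of -1.24 ± 0.28 (SD, n = 4). All were below the other diets (-0.70 to 0.41), but the fish channel of this probe was well above background on only 2 of the 4 arrays. Its mean depended on the background correction, at -2.69 with an offset of 0 and -4 in the scanner log ratios.

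The genes that build glycans and those that break them down moved in opposite directions in PPC + S, as the selection had listed them. All 3 synthesis genes were higher. Beta-1,3-N-acetylglucosaminyltransferase 7, which extends glycan chains with N-acetylglucosamine, was at 1.73, 2.13, 1.34 and 1.64, with a mean of 1.71 ± 0.33 (SD, n = 4), or 3.28-fold. The 16 fish of the other diets lay between -0.26 and 0.36 and none came near. With an offset of 0 its mean was 2.82 (7.06-fold), and in the scanner log ratios 3.5 (11.3-fold). Alpha-1,3-fucosyltransferase, which adds fucose to glycan ends, was at 1.87, 1.1, 0.57 and 0.32, with a mean of 0.97 ± 0.69 (SD, n = 4), and its lowest fish was just above the highest of the other diets, at 0.30. Glucosamine 6-phosphate N-acetyltransferase, an enzyme on the route to the activated sugar UDP-N-acetylglucosamine, was at 1.29, 0.80, 0.88 and 0.13, with a mean of 0.77 ± 0.48 (SD, n = 4). Fish 4 of this gene lay within the range of the other diets, -1.02 to 0.48.

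All 7 enzymes of glycan breakdown were lower, with means from -2.61 to -0.97 and a median of -1.64 (3.13-fold lower). Lysosomal alpha-mannosidase (mannosidase alpha class 2B member 1), which removes mannose from N-glycans, was at -3.88, -4, -1.35 and -1.21, with a mean of -2.61 ± 1.54 (SD, n = 4), or 6.11-fold lower. It had the lowest mean of the 33 genes, but stood above hyaluronan and proteoglycan link protein 4 with an offset of 0 (-2.61 against -2.69) and in the scanner log ratios (-2.59 against -4). N-acetylneuraminate lyase, which splits sialic acid, was at -3.04, -2.62, -0.64 and -1.29, with a mean of -1.90 ± 1.12 (SD, n = 4). In both genes fish 1 and 2 were far below fish 3 and 4, and all 4 were below the 16 other fish, which spanned -0.80 to 0.75 for the mannosidase and -0.33 to 0.37 for the lyase.

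The beta chain of beta-hexosaminidase, which removes terminal N-acetylhexosamines, was at -2.59, -2.40, -0.48 and -1.14, with a mean of -1.65 ± 1.01 (SD, n = 4), against -0.42 to 0.60 in the other diets. The other 4 enzymes had the same order of fish pairs. N-acetylglucosamine-6-sulfatase, which acts on heparan and keratan sulfate, had a mean of -1.64 ± 0.86, and di-N-acetylchitobiase, which cleaves the core of N-glycans, had -1.16 ± 0.64 (SD, n = 4 each). Aspartylglucosaminidase, which frees the glycan from asparagine, had -1.01 ± 0.47, and alpha-N-acetylgalactosaminidase had -0.97 ± 0.60 (SD, n = 4 each). Of the 7 enzymes, only aspartylglucosaminidase met the other diets, its highest PPC + S fish and the lowest other fish both being at -0.45. All 4 PPC + S fish were below the 16 others for 2.37% of all probes tested. The enzymes were chosen on these PPC + S values, so nothing is read from this separation.

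The median of the 7 enzymes was -2.45, -2.28, -0.67 and -1.14 in the 4 PPC + S fish. In each of the 7, both fish on arrays 1 and 2 were below both fish on the turned arrays 3 and 4. The same held for 14 of the 19 down-regulated genes, and for 77.3% of the 781 probes over 1.6-fold lower in PPC + S, so that this order of fish was not particular to these genes. Over all probes tested, arrays 1 and 2 were both lower for 30.9%. Of the 14 up-regulated genes, 4 had fish 1 and 2 above fish 3 and 4 (myosin IB, both glycosyltransferases and ubiquitin), against 72.7% of the 479 probes over 1.6-fold higher. Over all probes tested the share was 29.7%, close to that of these genes. The median difference between the pairs of arrays for the 7 enzymes was -1.45 in PPC + S, but 0.25 in CG + S and 0.23 in RSM + S, and -0.33 in HBM + S and -0.26 in SFM + S. Fish and array orientation cannot be told apart within a group.

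Markers of the cell types in the tissue also differed from the pool in PPC + S. These markers were picked here from genes that the study listed as lower (enterocyte) or higher (leukocyte) in PPC + S, so their directions were fixed in advance. The 8 enterocyte markers (such as intestinal fatty acid-binding protein and aquaporin-8) were lower in all 4 fish, with values from -5.09 to -0.41. Their medians were -2.60, -2.74, -1.41 and -1.62, the same order of fish pairs as in the glycan-degrading enzymes. Of 7 leukocyte markers 6 were found, with values from -0.02 to 3.83 and medians of 2.15, 2.16, 0.40 and 0.95. They did not move together in fish 3. There neutrophil cytosolic factor 1 was at -0.02 and matrix metalloproteinase-9 at 0.03, but the T-cell receptor beta chain at 2.74. In the other diets the enterocyte medians lay between -0.93 and 0.28 and the leukocyte medians between -0.68 and 0.59. The enterocyte medians were below 0 in every fish of HBM + S (-0.6 to -0.05) and SFM + S (-0.93 to -0.14). Apolipoprotein B, at -1.42 to -1.26 in PPC + S, reached -1.52 in SFM + S and 0.6 in RSM + S. Lactase-phlorizin hydrolase spanned -2.42 to 1.55 in the other diets, against -3.04 to -1.87 in PPC + S. All 14 markers were measured above background in a channel or both on all 20 arrays, none being absent from the tissue, and the study chose them on the same fish. The lists left out transporters that the study listed as higher. They also left out transmembrane glycoprotein NMB, found in mammals in macrophages, which had a mean of -1.02 in PPC + S. In bulk tissue, fewer cells of a type and less RNA per cell cannot be told apart, and the part of cell composition in the values above was not tested.

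**Figure D2:**
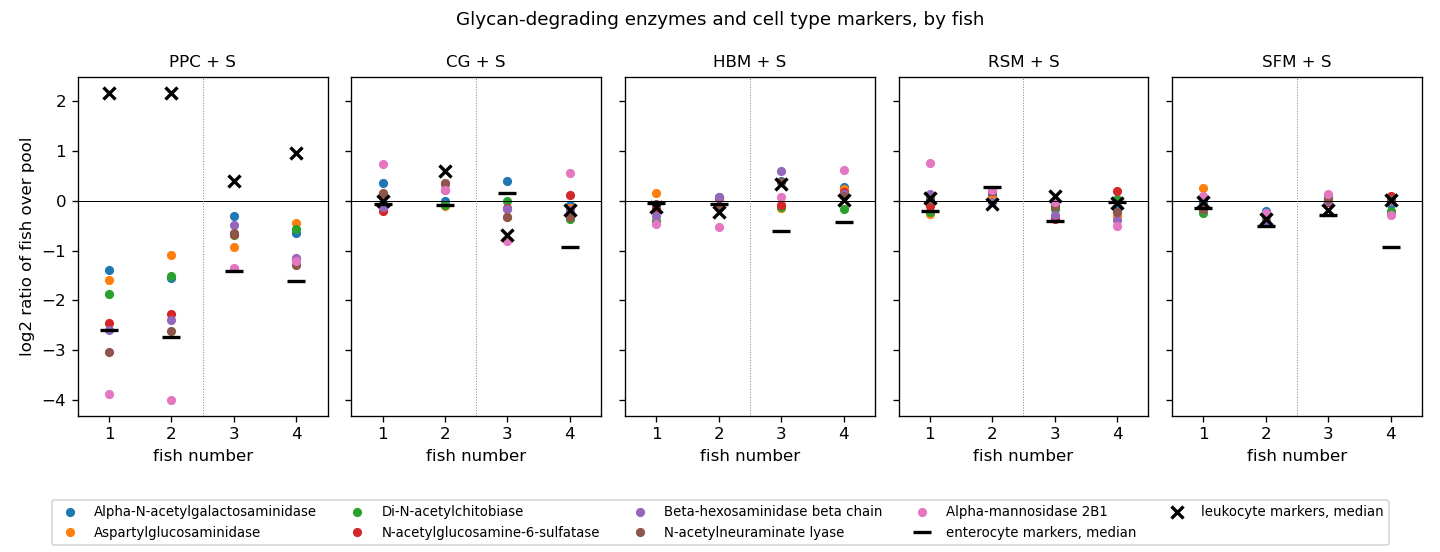
Log2 ratio of fish over pool (y axis) by fish number (x axis) in the 5 diets, for the 7 glycan-degrading enzymes (coloured points) and the median of the enterocyte markers (bars) and leukocyte markers (crosses). The dotted line parts arrays 1 and 2 from the turned arrays 3 and 4. In PPC + S the median of the enzymes was -2.45 and -2.28 in fish 1 and 2 against -0.67 and -1.14 in fish 3 and 4, and in the other diets the points lie around 0.

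Of the genes grouped here as growth factors, guanylin, which is not itself a growth factor, was higher in PPC + S. The other 2 genes were lower. Guanylin, a peptide that acts on intestinal guanylate cyclase to regulate water and salt transport, was at 1.13, 0.40, 1.33 and 1.54, with a mean of 1.1 ± 0.49 (SD, n = 4), or 2.15-fold. Its values in the other diets, -0.62 to 1.45, covered 3 of the 4. Connective tissue growth factor, a secreted protein of matrix formation, was at -1.77, -1.08, -1.05 and -0.84, with a mean of -1.19 ± 0.41 (SD, n = 4), and all 4 were below the other diets, -0.77 to 0.47. Fibroblast growth factor 12, which in mammals stays inside the cell and binds sodium channels, was at -1.34, -1.17, -1.34 and -0.58, with a mean of -1.11 ± 0.36 (SD, n = 4). Its other diets spanned -0.51 to 1.40, all above the PPC + S fish. In the scanner log ratios its PPC + S mean was -1.73.

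The 4 regulators were lower. The bHLH protein 3 of class B, known in mammals as a transcriptional repressor tied to the circadian clock, was at -3.24, -2.56, -1.11 and -1.29, with a mean of -2.05 ± 1.02 (SD, n = 4), or 4.14-fold lower, against -0.39 to 0.58 in the other diets. Its paralogue, bHLH protein 2, had a mean of -0.62 ± 0.27 (SD, n = 4) and overlapped with the other diets. The order of fish differed between the paralogues: protein 2 was lower in fish 3 and 4 (mean -0.84) than in fish 1 and 2 (-0.40), and protein 3 lower in fish 1 and 2 (-2.90) than in fish 3 and 4 (-1.20).

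Transmembrane glycoprotein NMB, found in mammals in macrophages and pigment cells, was at -1.07, -0.98, -1.19 and -0.85, with a mean of -1.02 ± 0.14 (SD, n = 4), the most even of the 19 down-regulated genes and below all 16 other fish (-0.57 to 0.36). The SD between its spots was 0.33, so that this evenness is below the measurement error. TGFbeta-inducible early growth response protein 3, a zinc finger transcription factor, was uneven, at -1.58, -1.52, -0.05 and -0.65, with a mean of -0.95 ± 0.73 (SD, n = 4). Fish 3 of this gene was at the level of the pool, and the mean was -1.80 in the scanner log ratios.

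The 4 stress genes with 1 probe were higher in PPC + S. Of the 2 stress entries left out for having 2 probes, heat shock protein 67B2 was listed as down-regulated. Ubiquitin, which marks proteins for breakdown, was at 2.67, 3.62, 2.22 and 2.09, with a mean of 2.65 ± 0.70 (SD, n = 4), or 6.28-fold, against -1.1 to 1.72 in the other diets. Its mean was 3.36 in the scanner log ratios and 3.30 in the authors' processed values. Heat shock cognate 70 kDa protein, a chaperone, was at 1.88, 1.27, 1.45 and 1.53, with a mean of 1.53 ± 0.25 (SD, n = 4), against -0.87 to 0.56. Heat shock cognate 71 kDa protein was at 1.73, 1.18, 1.64 and 1.63, with a mean of 1.54 ± 0.25 (SD, n = 4), against -0.72 to 0.34. These 2 chaperone probes differed by at most 0.18 in any PPC + S fish and correlated across arrays (r = 0.93 over 20 arrays, 0.62 over the 16 of the other diets), and since the genes are close relatives the probes may share RNA, which was not tested. The mitochondrial 60 kDa heat shock protein had a mean of 0.98 ± 0.69 (SD, n = 4) in PPC + S, with fish between 0.23 and 1.85, while the other diets spanned -1.93 to 1.33 and covered 3 of the 4.

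Set against the 16 fish of the other diets, the 4 PPC + S fish were all above them for 9 of the 14 up-regulated genes (2.18% of all probes tested) and all below them for 12 of the 19 down-regulated genes (2.37%). The genes that overlapped were occludin, gap junction Cx32.2, tropomyosin-1 alpha chain, protocadherin 20, the laminin beta 2-like chain, aspartylglucosaminidase, glucosamine 6-phosphate N-acetyltransferase, glypican 1, bHLH protein 2, TGFbeta-inducible early growth response protein 3, guanylin and the 60 kDa heat shock protein. These counts use the fish that chose the genes and nothing is read from them.

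**Figure D3:**
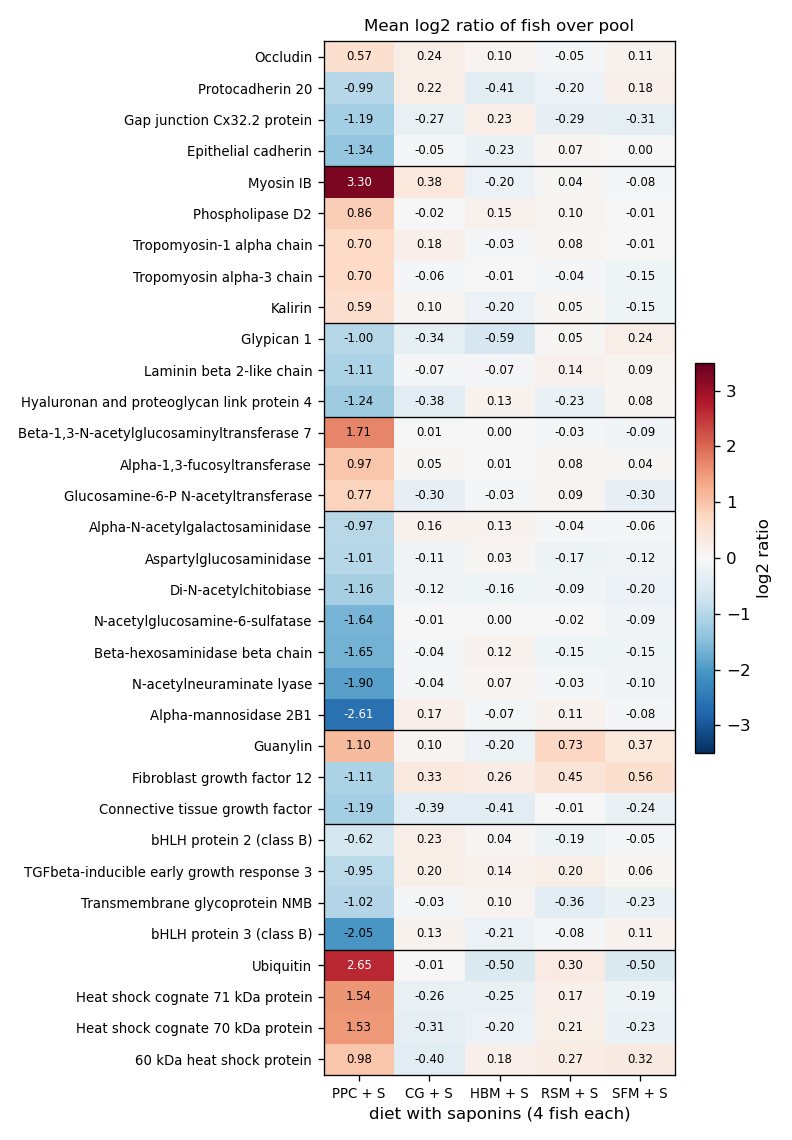
Mean log2 ratio over 4 fish in each diet (columns) for the 33 genes (rows, with lines between role groups); red is higher and blue lower than the pool. The PPC + S column spans -2.61 to 3.30, and in the other 4 columns the means span -0.59 to 0.73.

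The other 4 diet groups did not choose these genes and could be tested. The median of the 14 genes up-regulated in PPC + S lay between -0.13 and 0.18 in every fish of the other diets, and that of the 19 down-regulated genes between -0.31 and 0.11. The 7 glycan-degrading enzymes had medians between -0.31 and 0.21 in these 16 fish, and the 4 stress genes between -0.65 and 0.72. None of the 33 genes passed a change over 1.6-fold with an adjusted p below 0.05 by limma, whether with CG + S (0.0175% of all probes did), HBM + S (0.0117%), RSM + S (0.0175%) or SFM + S (0.0117%). At an unadjusted p below 0.05, limma called 5 genes (15.2% of 33, against 5.28% of all probes) with CG + S and 3 (9.09%, against 5.17%) with HBM + S. It called 2 (6.06%) with RSM + S, against 5.53% of all probes, and 2 with SFM + S, against 3.3%. By the methods' t-test at the limit of 1.6-fold without adjustment, 0 of the 33 were called in each of these groups, against 0.0933% of all probes with CG + S, 0.0992% with HBM + S, 0.327% with RSM + S and 0.175% with SFM + S. After Benjamini-Hochberg adjustment it called 0 of the 33 and 0% of all probes in each.

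Connective tissue growth factor was called without adjustment in 3 of these groups, and was lower in each as in PPC + S. It was at -0.45, -0.59, -0.46 and -0.06 in CG + S, with a mean of -0.39 (limma adjusted p = 0.916), and at -0.77, -0.46, -0.06 and -0.34 in HBM + S, with a mean of -0.41 (adjusted p = 0.847). In SFM + S it was at -0.24, -0.25, -0.18 and -0.30, with a mean of -0.24 (adjusted p = 1). In RSM + S, at -0.11, 0.20, -0.61 and 0.47, the fish lay on both sides of 0. Over the 16 fish its mean was -0.26 and 14 of them were below 0 (limma adjusted p = 0.357). The unadjusted calls depended on the processing. In SFM + S the limma p was 0.0861 with an offset of 0, 0.119 with median centring and 0.114 in the scanner log ratios. In HBM + S it was 0.0425, 0.0953 and 0.0537 in these settings, and in CG + S 0.0143, 0.0336 and 0.0418. The mean stayed below 0 in all of them.

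Fibroblast growth factor 12 had the opposite sign in the other diets to that in PPC + S. It was higher in all 4 fish of CG + S, at 0.47, 0.52, 0.30 and 0.04 (mean 0.33, limma adjusted p = 0.916), and in all 4 of SFM + S, at 0.83, 0.89, 0.13 and 0.39 (mean 0.56, adjusted p = 1). In HBM + S and RSM + S its fish were spread over both sides of 0, with means of 0.26 and 0.45. The mean over the 4 groups was 0.40 (limma adjusted p = 0.514), with 4 of 16 fish below 0. With spots flagged as outliers kept, which were otherwise left out, the mean was 0.23 in CG + S and 0.25 in SFM + S.

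In HBM + S, glypican 1 was lower in all 4 fish, at -0.72, -0.63, -0.51 and -0.50, with a mean of -0.59 (limma adjusted p = 0.567), and bHLH protein 3 had a mean of -0.21 (adjusted p = 0.957). The glypican 1 values of SFM + S, by contrast, spanned -0.51 to 1.12. In CG + S, myosin IB had a mean of 0.38, occludin of 0.24 and heat shock cognate 70 kDa protein of -0.31 (limma adjusted p = 0.916 for each), the last with a sign opposite to PPC + S. In RSM + S, guanylin was at 1.45, -0.28, 0.77 and 0.99, with a mean of 0.73 (limma adjusted p = 0.861), and transmembrane glycoprotein NMB was at -0.46, 0.11, -0.52 and -0.57, with a mean of -0.36 (adjusted p = 0.823). Both had 3 of 4 fish on the side they had in PPC + S. With spots flagged as outliers kept, the mean of transmembrane glycoprotein NMB in RSM + S was only -0.06, while that of guanylin was 0.81. The mean of glypican 1 in HBM + S was then -0.24.

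**Figure D4:**
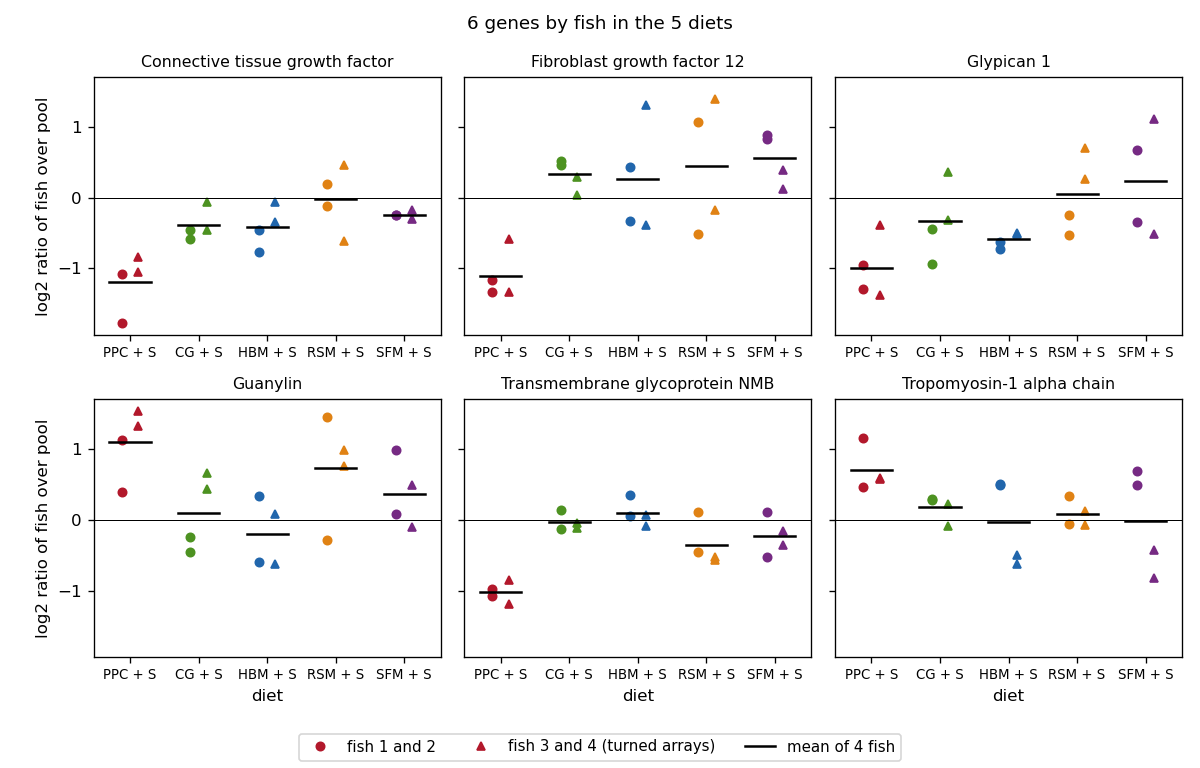
Log2 ratio of fish over pool (y axis) for 6 genes in the 5 diets (x axis), with circles for fish 1 and 2, triangles for fish 3 and 4 on the turned arrays and bars for the mean of 4 fish. Connective tissue growth factor lies below 0 in 14 of the 16 fish outside PPC + S, fibroblast growth factor 12 has a mean below 0 in PPC + S alone, and tropomyosin-1 alpha chain parts by array orientation in HBM + S and SFM + S.

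Over the 16 arrays of these 4 groups taken as 1 mean, limma called 0 of the 33 genes after adjustment (0.0292% of all probes) and 5 without it (15.2% of 33, against 7.69% of all probes). Besides connective tissue growth factor and fibroblast growth factor 12, these were di-N-acetylchitobiase, with a mean of -0.14 and 12 of 16 fish below 0 (limma adjusted p = 0.392), transmembrane glycoprotein NMB, at -0.13 (adjusted p = 0.586), and occludin, at 0.10 (adjusted p = 0.622). With spots flagged as outliers kept, the mean was -0.23 for connective tissue growth factor and 0.20 for fibroblast growth factor 12. It was then -0.12 for di-N-acetylchitobiase, -0.02 for transmembrane glycoprotein NMB and 0.06 for occludin. No gene differed among the 4 groups by limma's moderated F, with 0 called after adjustment (0.0233% of all probes) and 0 without it (5.02%). The gene nearest to the limit was transmembrane glycoprotein NMB (limma adjusted p = 0.996). In simulated data with the spreads of these arrays, 200 of 16775 probes were changed by 1 or 2 on the log2 scale, with independent noise. A change of 1 passed the limits in 81% of probes for a group of 4 arrays and in 100% for the mean of 16. The adjusted limit is looser when more probes change, and far fewer probes passed in the real groups. These shares can therefore be too high for the real groups, and the 0 calls do not exclude such a change. Real arrays deviated together by their orientation, which the simulation left out, and changes under 1 were not simulated.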

How the data were processed

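The files of 20 arrays were analysed. As deposited, the median intensity of each spot and its local background were extracted with Feature Extraction 10.7.1.1 per the file headers and not normalized. The log10 ratios deposited in the same files had been background-corrected and dye-normalized by that software. For the match of genes, the authors deposited log2 ratios of fish to pool that they had normalized by Lowess. Fish numbers here are those of the scanner files, which for 12 arrays differ from the numbers of the authors' values.

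Spots with an outlier flag (2.02% to 3.81%) were left out, background was corrected by normexp with an offset of 50, ratios were normalized by loess within arrays and the 2 spots of a probe averaged. The offset draws dim probes towards 0. Testing required a signal well above background, in either channel, for 3 or more of the 4 arrays of some group, which kept 17143 probes. Precision is limited by the number of arrays.

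With limma 3.58.1 (R 4.3.3), the mean of each group alone was set against 0, and the 4 groups other than PPC + S were also fitted together for their mean and for differences among them. A call needed a change over 1.6-fold (none for the joint fits) and a Benjamini-Hochberg adjusted p below 0.05 over all probes tested. The tests were tested on simulated data, in which 200 of 16775 probes were changed. Fish with the same number deviated together in the 4 groups (r of 0.14 to 0.62 over 6 pairs per number and 16775 probes). Fish of different numbers and groups did so too where their arrays ran the same way (r of 0.07 to 0.51 over 24 pairs), and those on arrays that ran opposite ways had r of -0.55 to 0.02 (48 pairs). The labels do not tie these fish to each other, and the cause was not tested. The fit with the number as a block is therefore given among the alternatives.

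All genes are named with their mean in PPC + S. Values fish by fish are given for the 3 largest changes of each role and, with other diets, for genes with an unadjusted p below 0.05; other values printed were chosen after they had been seen. The genes, roles and marker lists were chosen with earlier results of these data known. None of the 33 probe accessions matched the annotation used. Plots were made in matplotlib 3.10.9 (Python 3.11.15).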

Additional observations from a re-analysis of the deposited data

Results flagged for a closer look

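In a search of 55 groups of 4 fish (each gene in PPC + S, the genes named in other diets, and medians of role groups in PPC + S), 1 held a fish far from the other 3, where chance alone gives about 1 in 20. This was transmembrane glycoprotein NMB in RSM + S, with fish 2 at 0.11 and the others between -0.57 and -0.46. With spots flagged as outliers kept, the mean of this gene in RSM + S was -0.06 rather than -0.36.

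In 3 of 132 pairs of PPC + S with another diet, all 4 fish of PPC + S lay on one side of 0 and all 4 of the other diet on the opposite side. Since all 4 PPC + S fish of every gene lay on the listed side, only the 4 fish of the other diet had to agree. The share of such pairs over all probes was not computed, so nothing is read from this count. For fibroblast growth factor 12, the mean of PPC + S minus that of CG + S was -1.44, and minus that of SFM + S it was -1.67. For kalirin, PPC + S minus SFM + S was 0.74, with the SFM + S fish between -0.31 and -0.05. These differences were not tested, because the genes were chosen on their PPC + S values.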

How the results depend on the processing

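The median of the up-regulated genes in PPC + S (0.97) was 1.15 with a normexp offset of 0, 1.29 with median centring, 1.22 with the scanner software's log ratios and 1.13 with the authors' processed values. That of the down-regulated genes (-1.16) was -1.52 with an offset of 0 and -0.85 with median centring. It was -1.61 with the scanner software's log ratios and -1.18 with the authors' processed values. With spots flagged as outliers kept, the medians were 0.94 and -1.05. Over genes whose second-nearest probe lay more than 0.02 away, an alternative added after seeing the data, the up-regulated median was 1.54. Without 1 fish the medians lay between 0.97 and 1.07 and between -1.30 and -0.99. In these settings, and in arrays 1 and 2 or 3 and 4 alone (also added afterwards), every gene kept its sign. For subsets of the fish this was fixed in advance, since all 4 PPC + S fish of every gene lay on the listed side. With the authors' values it was fixed too, as these chose the genes. The mean of single genes moved by more than their SD between fish for 8 of the 33 with an offset of 0, 7 with median centring, 10 with the scanner log ratios and 3 with the authors' values. By over 1.5 times it moved for 4, 0, 8 and 1 genes in these settings, whose values stand beside them above.

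With the dyes as stated, the medians were 0.08 and -0.48. Signs changed in PPC + S for occludin (-0.19), kalirin (-0.02), bHLH protein 2 (0.22), guanylin (-0.33), the 60 kDa heat shock protein (-0.51) and heat shock cognate 71 kDa protein (-0.09). They also changed for occludin (-0.03) and myosin IB (-0.08) in CG + S, for guanylin (-0.15) and transmembrane glycoprotein NMB (0.18) in RSM + S, and for the mean of transmembrane glycoprotein NMB over 4 groups (0.09). That mean then passed for 3 genes, kalirin (-0.18), tropomyosin-1 alpha chain (0.33) and the laminin beta 2-like chain (-0.24), and for 38% of all probes. Unturned, a difference between the dyes does not cancel.

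The counts of genes called in each other diet stayed at 0 in every other alternative that kept the adjustment or the fold limit, also without any 1 fish, and with an unadjusted p alone were 5 in CG + S, 3 in HBM + S, 2 in SFM + S and 2 in RSM + S. The 17 tests of single genes named in other diets had adjusted p between 0.131 (glypican 1 in HBM + S) and 1 over all alternatives. With the fish number as a replicate block, 0 genes were called for the mean and 0 for differences among groups, so the block changed no call. With slide as a random block the count was also 0.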
